A study of Homo sapiens with 6 samples.

Results

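The oligoadenylate synthetases of human cells are OAS1, OAS2, OAS3 and the related OASL. The 4 genes were taken from the expression table by their gene names, 4 of 58825 entries, and all 4 were above 1 FPKM in all 6 libraries. FPKM counts sequenced fragments relative to transcript length and library size, so levels of different genes can be set side by side. The cells were T24, an established line of human bladder carcinoma. 3 libraries came from cells with the control hairpin shNC-1, whose genotype is labelled WT (control libraries), and 3 from cells with shDLGAP5-1, the 1 hairpin against DLGAP5 measured here (knockdown libraries). Each group is numbered as replicates 1 to 3, and values are given in that order. DLGAP5 encodes a spindle protein of mitosis. With 1 hairpin in each group, effects of DLGAP5 depletion and other effects of the hairpins cannot be told apart. The labels do not say whether libraries of a group stem from separate cultures. The p-values therefore rest on the spread between these libraries, which may be technical.

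Oligoadenylate synthetases are sensors of double-stranded RNA. Bound to it, OAS1, OAS2 and OAS3 join ATP into 2-5A, short chains of adenylate in 2′-5′ linkage, and 2-5A acts as a second messenger that starts the cutting of single-stranded RNA of virus and host. The synthetases differ in how often the catalytic unit is repeated, once in OAS1, more often in OAS2 and most often in OAS3. OASL has lost the synthetase activity, carries ubiquitin-like domains and is known to enhance signalling by the RNA sensor RIG-I. All 4 genes are known as targets of interferon.

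DLGAP5 stood at 29.7 to 33.0 FPKM in the shNC-1 libraries and at 4.0 to 7.51 FPKM in the shDLGAP5-1 libraries, a mean 82.7% lower. Approximate depth, read from the smallest steps of the values, was 22100000 to 28200000 fragments in the control libraries and 14000000 to 18600000 in the knockdown libraries. The keratins KRT7, KRT8 and KRT18 and vimentin were at 237 FPKM or more in every library, and KRT19, the remaining marker of the line, was at 17.7 to 20.9 FPKM in control and 10.6 to 11.1 FPKM in knockdown libraries. It fell by 0.76 on the log2 scale (limma adjusted p = 0.00438). E-cadherin (CDH1) was at most 0.167 FPKM. The uroplakins UPK1A, UPK1B and UPK2, markers of mature urothelium, were at most 0.201 FPKM, and UPK3A was at 0 except for 2.28 FPKM in shDLGAP5-1 replicate 3. Other urothelium markers were expressed: PPARG was at 9.81 to 14.3 FPKM and EPCAM at 0.765 to 1.19 FPKM over all libraries. GATA3 was at 0.258 to 0.544 FPKM and KRT20 at 0. The 14 leukocyte markers summed to 741 FPKM in shDLGAP5-1 replicate 3, mostly LYZ (lysozyme), and to 1.35 to 22.8 FPKM in the other libraries. In that library 8 of the 14 were higher than anywhere else, among them SPI1 at 20.7, TYROBP at 11.2, FCER1G at 8.84, PTPRC at 7.03, NKG7 at 3.16 and CSF1R at 2.45 FPKM. The endothelial and leukocyte gene PECAM1 was at 8.45 FPKM there and at most 0.388 FPKM elsewhere. CD14 was not highest there, at 0.482 FPKM beside 0.536 and 0.468 FPKM in shDLGAP5-1 replicates 1 and 2. LYZ was also at 21.1 FPKM in shNC-1 replicate 3 and at 11.9 FPKM in shDLGAP5-1 replicate 1. Of the 14 markers 4 were listed at 0 in every library, among them CD3D, CD3E and MS4A1 of T and B cells, and CD79A of B cells was at most 0.169 FPKM. In RNA from whole cultures, a change in the share of cells that express a gene and a change of RNA per cell cannot be told apart.

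OASL had the largest change of the family. Its level was 3.34, 4.43 and 3.6 FPKM in the control libraries, against 28.1, 28.8 and 21.8 FPKM in the knockdown libraries. Every shDLGAP5-1 library lay above every shNC-1 library, and the lowest of the former was 4.92 times the highest of the latter. The mean went from 3.79 ± 0.566 to 26.2 ± 3.84 FPKM (SD, n = 3 each), a ratio of 6.92. OASL rose by 2.50 ± 0.15 (standard error) on the scale of log2(FPKM + 1), with a limma adjusted p of 0.000380. That scale makes changes of weakly expressed genes look smaller than they are. That was the 11th largest rise among 12714 genes tested.

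OAS1 followed, from 2.26, 2.73 and 1.75 FPKM in the control libraries to 16.8, 12.6 and 13.7 FPKM in the knockdown libraries. The groups did not overlap, and the lowest shDLGAP5-1 library was 4.60 times the highest shNC-1 library. Its mean of 2.25 ± 0.489 FPKM became 14.4 ± 2.19 FPKM (SD, n = 3 each), a ratio of 6.39. It rose by 2.24 ± 0.16 (standard error) on the log2 scale, with a limma adjusted p of 0.000658 and the 16th largest rise. OAS1 was the lowest of the family in all 3 shNC-1 libraries, where its values rest on about 108 to 186 fragments each, counted on the longest transcript.

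OAS2 rose less. Control libraries had 2.41, 3.09 and 2.98 FPKM of it and knockdown libraries 7.64, 9.38 and 8.08 FPKM, again without overlap. The means were 2.83 ± 0.361 and 8.37 ± 0.902 FPKM (SD, n = 3 each), a ratio of 2.96. Its rise of 1.29 ± 0.13 (standard error) on the log2 scale, with a limma adjusted p of 0.00133, ranked 197th.

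OAS3 did not pass the test. It was the most abundant synthetase of control cells, with 14.41, 13.75 and 11.66 FPKM, and the knockdown libraries had 14.35, 20.36 and 19.60 FPKM. Replicates 2 and 3 of shDLGAP5-1 lay above all controls, but replicate 1 lay between the control values, so the groups overlapped. The means were 13.3 ± 1.44 and 18.1 ± 3.27 FPKM (SD, n = 3 each), and the difference on the log2 scale was 0.41 ± 0.16 (standard error), with a limma adjusted p of 0.102. The 95% interval of the fold was 1.03 to 1.72, before adjustment for the number of genes tested.

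**Figure D1:**
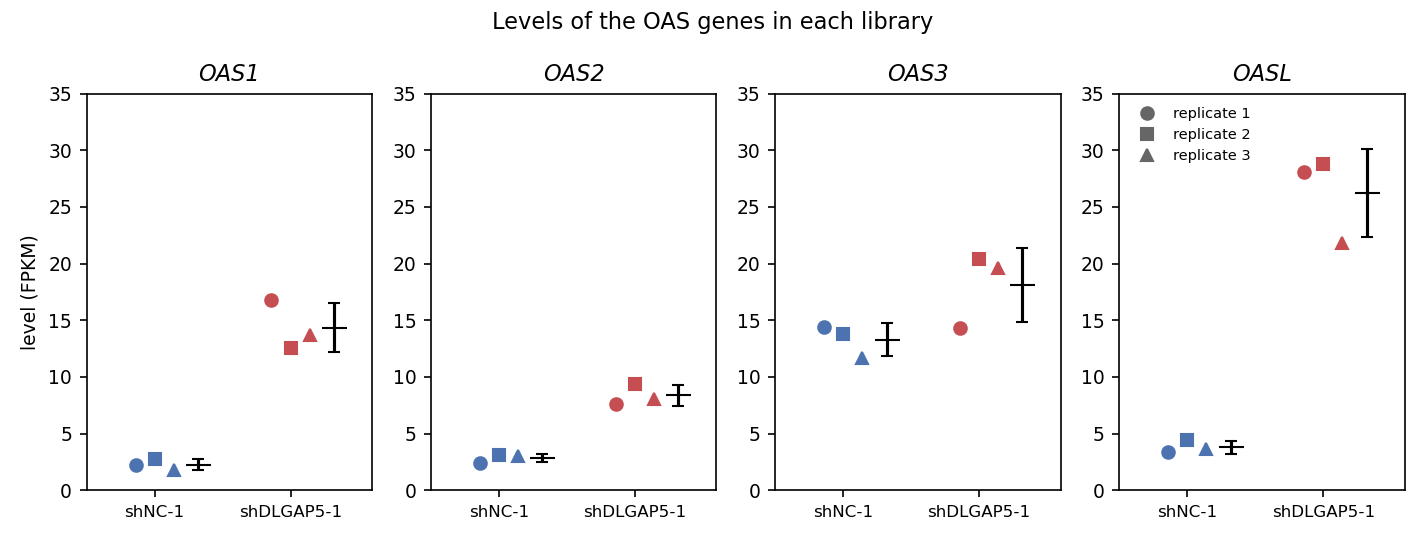
Level in FPKM of each OAS gene by library, with symbols for the replicates and black bars for the mean ± SD of 3 libraries per group. OASL, OAS1 and OAS2 do not overlap between groups, whereas OAS3 of shDLGAP5-1 replicate 1 (14.35 FPKM) sits between the shNC-1 values of 13.75 and 14.41 FPKM.

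The call of OAS3 depended on the setting. In shDLGAP5-1 replicate 1 genes with short transcripts were relatively high. With tested genes put in 4 equal classes by transcript length, its median deviation from the gene mean was 0.19 (log2) in the shortest class and −0.17 in the longest. The longest class was at −0.01 and 0.13 in the other knockdown libraries and at −0.09 to 0.09 in the control libraries. OAS3 has the longest annotated transcript of the family, 6719 bases, and OAS1 the shortest, 2416 bases. With the trend of each library on transcript length removed, the log2 levels of OAS3 were 3.86, 3.84 and 3.75 in shNC-1 and 4.10, 4.42 and 4.23 in shDLGAP5-1, so that replicate 1 was still the lowest of its group but the groups no longer overlapped. The log2 fold change was then 0.43 (limma adjusted p = 0.0245). With the replicate number as a block besides, OAS3 did not pass (limma adjusted p = 0.0669). Without shDLGAP5-1 replicate 1 the log2 fold change was 0.56 (limma adjusted p = 0.0291). With all libraries kept and weighted by their spread (array weights) it was 0.47 (limma adjusted p = 0.0170). Why OAS3 differed between settings was not tested.

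Called genes of the family therefore numbered 3 of 4, all of them higher in shDLGAP5-1. Among all tested genes 24.8% were called, 15.3% higher and 9.52% lower. Of these calls 61.6% were higher, a share that went to 48.1% with same-total scaling, under which the calls of OASL, OAS1 and OAS2 held. OASL, OAS1 and OAS2 also did not overlap between groups, as was the case for 43.9% of tested genes, 25.6% higher and 18.3% lower. An exact two-sided permutation test of FPKM gave 0.1 for these 3, the smallest p that 3 against 3 libraries allow, and 0.2 for OAS3. Without shDLGAP5-1 replicate 3 the log2 fold changes were 2.63 for OASL, 2.27 for OAS1, 1.31 for OAS2 and 0.35 for OAS3. That library had the highest sum of leukocyte markers, and OASL had its lowest shDLGAP5-1 level there.

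**Figure D2:**
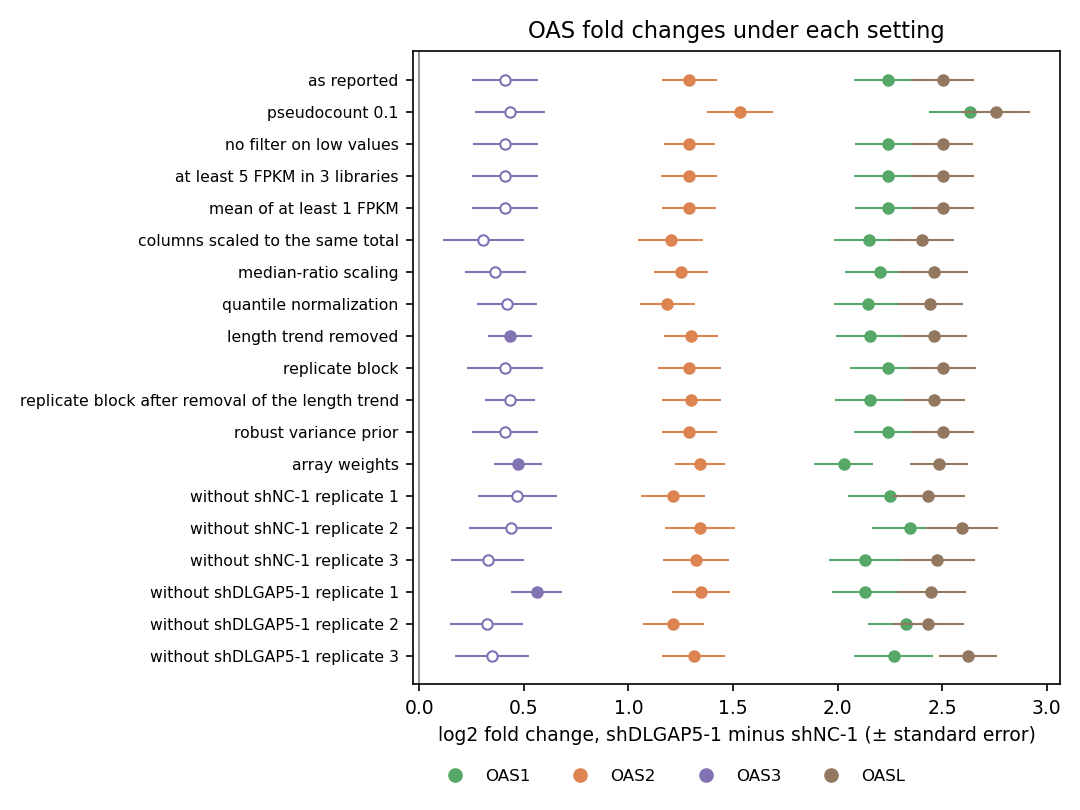
Log2 fold change (x axis, ± standard error) of each OAS gene as reported and under each of 18 alternatives (y axis), with filled points for a limma adjusted p under 0.05. OASL, OAS1 and OAS2 are filled in every row, and OAS3 in 3 of them, between 0.43 and 0.56.

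The measured changes of the members differed in size, though the exact test of 3 against 3 libraries cannot go below 0.1. The log2 level of OAS1 minus that of OAS3 was −2.24, −1.98 and −2.20 in control libraries but 0.21, −0.66 and −0.49 in knockdown libraries, a shift of 1.83 without overlap. For OASL against OAS3 the shift was 2.09, and for OAS2 against OAS3 it was 0.88. OASL exceeded OAS2 by 1.21 and OAS1 exceeded OAS2 by 0.95, also without overlap. OASL and OAS1 could not be separated in this way: the shift of 0.26 came with values of 0.41 to 0.74 in shNC-1 and 0.63 to 1.13 in shDLGAP5-1. Of these 6 pairs, 5 reached the smallest exact permutation p of 0.1 (0.12 after Benjamini-Hochberg adjustment over the 6) and OASL against OAS1 had p = 0.3. How often other pairs of genes shift without overlap was not tested.

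The make-up of the family also differed between groups. The 4 genes summed to 22.1 ± 2.01 FPKM in shNC-1 and to 67.0 ± 3.94 FPKM in shDLGAP5-1 (SD, n = 3 each). OAS3 made up 57.3% to 64.3% of that sum in the controls and 21.5% to 31% in shDLGAP5-1. OASL went from 14.9% to 18.5% up to 34.5% to 42.0%, and OAS1 from 8.8% to 11.4% up to 17.7% to 25.1%. The 21.5% of OAS3 and the 25.1% of OAS1 were both in shDLGAP5-1 replicate 1, where short transcripts were relatively high. OAS2 kept a like share, 10.8% to 14.9% and 11.4% to 13.2%, in ranges that overlapped.

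The order of levels differed accordingly. In all 3 shNC-1 libraries it was OAS3, OASL, OAS2, OAS1, and the ranges of OAS2 and OAS1 overlapped. In shDLGAP5-1 OASL was highest and OAS2 lowest in all 3 libraries. OAS3 and OAS1 between them overlapped, with OAS1 above OAS3 in replicate 1. With the length trend removed, OAS1 was at 4.11 and OAS3 at 4.10 on the log2 scale in that library. Each library gave the same ranking of OASL over OAS1 and of OASL over OAS2.

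**Figure D3:**
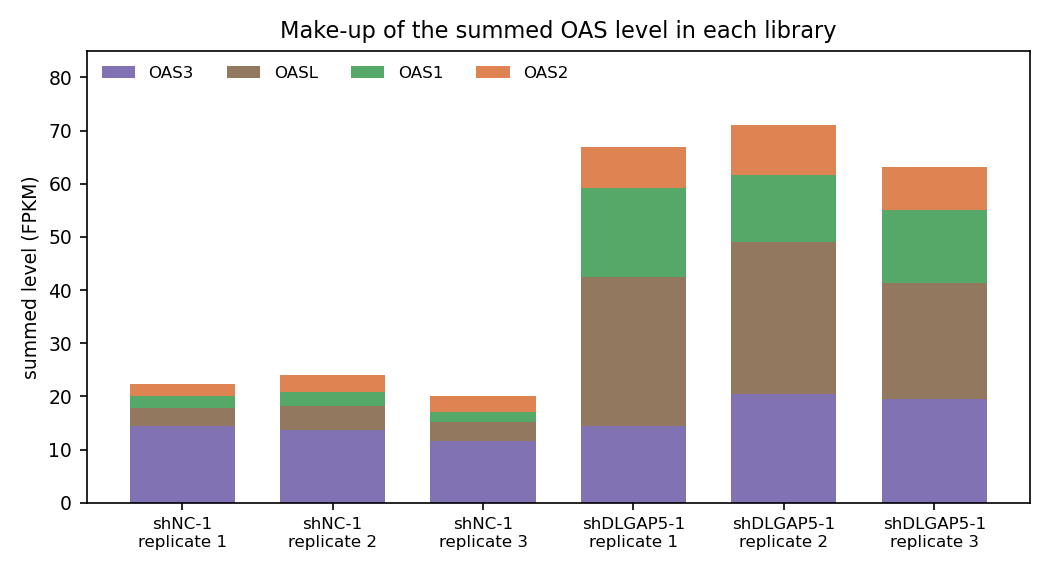
Summed FPKM of the 4 OAS genes (y axis) in each library (x axis), stacked by gene. The sum is 20 to 24 FPKM in shNC-1, mostly OAS3, and 63.2 to 71.1 FPKM in shDLGAP5-1, where OASL is the largest part.

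OAS1, OAS3 and OAS2 lie side by side on the plus strand of chromosome 12, and OASL lies apart on the minus strand of the same chromosome. In GRCh38 coordinates the table gives 112906783 to 112933222 for OAS1 (ENSG00000089127), 112938444 to 112973251 for OAS3 (ENSG00000111331), 112978395 to 113011723 for OAS2 (ENSG00000111335) and 121019111 to 121039242 for OASL (ENSG00000135114). Promoter sequences from RefSeq (GRCh38.p14) were at hand for 2 of the 4, OAS1 and OAS3, and the 250 bases before their RefSeq starts were searched. The core that interferon-regulatory factors bind, written AANNGAAA and read on both strands, is in 20.3% of 35116 promoters of that length. OAS1 held it at 2 places and OAS3 at 3, while 4.54% of promoters held 2 or more. The sequences are shown because the promoter of the gene that rose and that of the gene that did not pass hold the same core. Each is read 5′ to 3′ on the plus strand, with the core in capitals.
OAS1, chr12:112906932-112906961: cctcccttctgaggAAACGAAAccaacagc
OAS1, chr12:112906900-112906929: ctgatttgcaAAAGGAAAgtgcaaagacag
OAS3, chr12:112938444-112938473: gttcggagagccgggcgggaAAACGAAAcc
OAS3, chr12:112938224-112938351: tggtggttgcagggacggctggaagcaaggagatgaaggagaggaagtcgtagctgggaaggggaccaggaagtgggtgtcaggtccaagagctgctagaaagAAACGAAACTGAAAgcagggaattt

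The first OAS1 stretch ends at the base before the RefSeq start, with its core 16 to 9 bases before it. The first OAS3 stretch also ends there, with its core 10 to 3 bases before the start. The longer OAS3 stretch, upstream of every OAS3 transcript in GENCODE, holds the other cores, 147 to 140 and 141 to 134 bases before the start and overlapping each other. Both OAS1 stretches lie after the earliest OAS1 start in GENCODE, 112906777, and the 65 searched bases before that start hold no core. The first OAS3 stretch likewise lies after the earliest OAS3 start in GENCODE, 112938352. A stricter element, GAAA and GAAA separated by any 2 bases, overlaps the core and is in 3.02% of promoters. OAS3 held it at 2 places and OAS1 at none. The gamma-activated site, TTCNNNGAA, is in 6.57% of promoters, in OAS1 at 168 to 160 bases before the start and in OAS3 at none. The longest runs that the OAS1 and OAS3 promoters share have 10 bases, and there are 2 of them, offset by 1 base in OAS1. GAAACGAAAC begins 17 bases before the OAS1 start and 148 before the OAS3 start, and is in 17 of 35116 promoters (0.048%). AAACGAAACC begins 16 bases before the OAS1 start and 10 before the OAS3 start, and is in 10 promoters (0.028%). A match is a run of letters and does not show binding.

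None of the tested partners of the synthetases in the 2-5A pathway was called higher. ABCE1, a ribosome recycling factor, went from 49.2, 47.3 and 44.3 FPKM in shNC-1 to 28.3, 26.2 and 35.1 FPKM in shDLGAP5-1. It fell by 0.64 on the log2 scale (standard error 0.13, limma adjusted p = 0.0138), without overlap between groups. PDE12, a phosphodiesterase that degrades 2-5A, was at 4.40 ± 0.467 and 3.54 ± 0.0751 FPKM (SD, n = 3 each; log2 fold change −0.24, limma adjusted p = 0.172). AKAP7, an anchor protein with a phosphodiesterase domain that can cleave 2-5A, was at 2.48 ± 0.302 and 2.68 ± 0.471 FPKM (log2 fold change 0.08, limma adjusted p = 0.721). Of the 3 partners tested, 0 were called higher and 1 lower (9.52% of all tested genes were called lower), with a median log2 fold change of −0.24 beside 0.03 over all tested genes. The call of ABCE1 was lost without shNC-1 replicate 1 or 2 (0 called), and with the replicate number as a block.

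Other sensors of the same kind of RNA rose in part. Of 6 genes for double-stranded RNA sensors and their adaptor that passed the filter in both groups, 3 were called higher and 0 lower (15.3% of all tested genes were called higher), with a median log2 fold change of 0.69 beside 0.03 over all tested genes. DDX58, which encodes RIG-I, had 10.7 ± 0.177 FPKM in control and 35.3 ± 1.20 FPKM in knockdown libraries (SD, n = 3 each), a rise of 1.64 on the log2 scale. DHX58, the relative LGP2, rose by 1.43 and IFIH1, the sensor MDA5 of long double-stranded RNA, by 1.23. TLR3, the endosomal sensor, is left out of this count, since it reached 1 FPKM in shDLGAP5-1 libraries alone and so entered the test through the group in which it was high. Its log2 fold change of 0.39 had a limma adjusted p of 0.0392, and its call was lost in 8 of the 13 alternatives in which it could be tested. EIF2AK2, the kinase PKR that binds double-stranded RNA and blocks translation, was at 11.7 ± 1.62 and 11.8 ± 1.08 FPKM (log2 fold change 0.02, limma adjusted p = 0.927), and was at −0.08 and −0.03 on the log2 scale with same-total and with median-ratio scaling. EIF2AK2, an interferon target like the OAS genes, was chosen after its value was seen.

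Among genes of interferon signalling 7 of 13 tested were called higher and 0 lower, beside 15.3% higher over all tested genes, with a median log2 fold change of 0.51. IRF7, a transcription factor of the interferon response, had 8.64 ± 1.18 FPKM in control and 23.7 ± 3.85 FPKM in knockdown libraries (SD, n = 3 each), a rise of 1.35 on the log2 scale. IRF1 rose by 0.84, IRF9, the DNA-binding part of the complex ISGF3, by 0.85, and USP18, which removes ISG15 from proteins, by 0.63. The call of IRF9 was lost in 6 of 18 alternatives and that of USP18 in 6 of 17. Those of IRF7 and IRF1 held in all 18. The interferon genes IFNB1 and IFNL1, chosen after their values were seen, were at most 0.086 and 0.187 FPKM in any library. The count of 7 was smaller when a library was left out. Leaving out replicate 1, 2 or 3 of shNC-1 gave 3, 2 and 4, and leaving out replicate 1 or 3 of shDLGAP5-1 gave 4 and 3. The interferon signalling count was 2 without a filter on low values (1302 of 31433 over all tested genes). With the replicate number as a block it was 2 (951 of 12714), and with same-total scaling 4 (1282 of 12714). With median-ratio scaling it stayed at 7 (1699 of 12714).

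Relatives of the OAS fold in the nucleotidyltransferase family were not called higher. CGAS, the DNA sensor that makes a cyclic dinucleotide, had a mean of 9.49 ± 0.425 FPKM in control and 9.67 ± 0.265 FPKM in knockdown libraries (SD, n = 3 each). Its log2 fold change of 0.02 had a limma adjusted p of 0.882. The sign was negative with same-total or median-ratio scaling and with the length trend removed, with −0.08 as the lowest of these values. MB21D2 fell by 0.51 on the log2 scale (limma adjusted p = 0.0251), a call lost in 6 of 18 alternatives. It did not hold when any 1 control library or shDLGAP5-1 replicate 2 was left out, without a filter on low values, or with the replicate number as a block. The mitochondrial proteins MIEF1 and MIEF2 had log2 fold changes of −0.67 and 0.10 (limma adjusted p = 0.117 and 0.884). Of these 4 genes 0 were called higher and 1 lower (9.52% of all tested genes were called lower), and the median was −0.24.

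**Figure D4:**
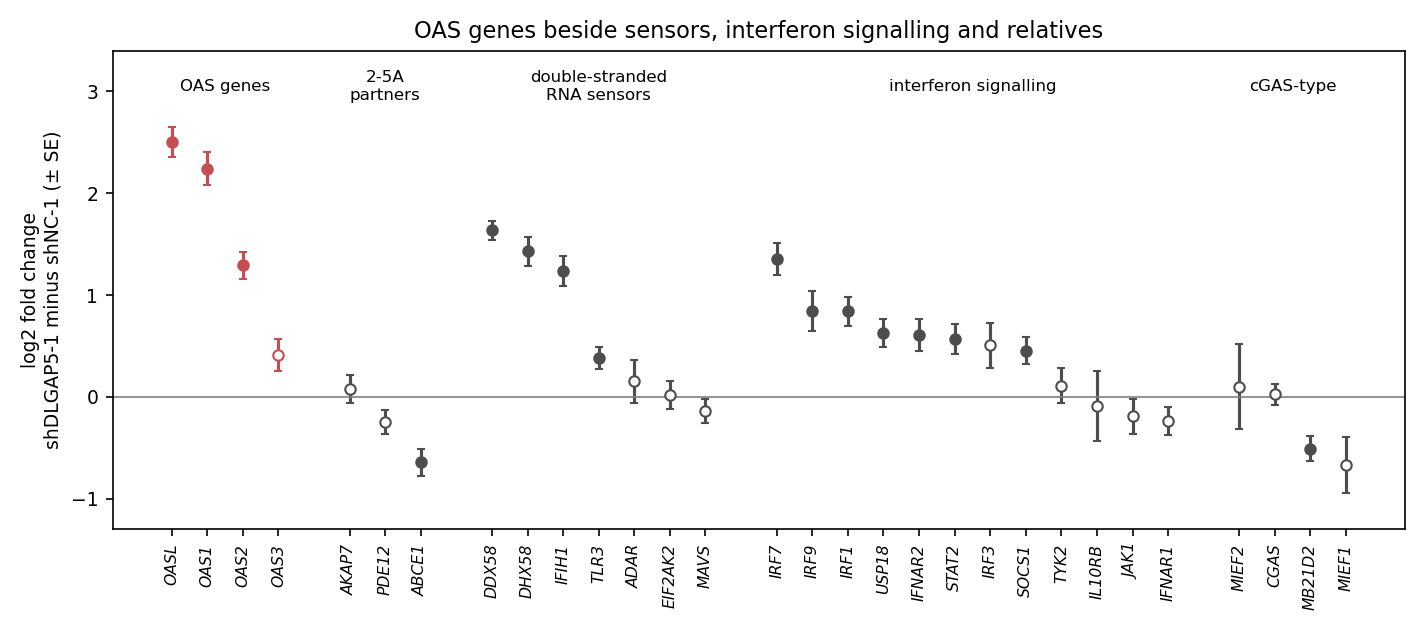
Log2 fold change (y axis, ± standard error) of the OAS genes in red and, in grey, of tested 2-5A partners, double-stranded RNA sensors, cGAS-type relatives and all but 1 of the interferon signalling genes, with filled points for a limma adjusted p under 0.05. OASL (2.50) and OAS1 (2.24) lie above every gene of the other groups shown, of which DDX58 is the highest (1.64). TLR3, also filled, passed the filter through shDLGAP5-1 alone, where it was high.

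Genes lying closest to the OAS1-OAS3-OAS2 cluster were too low to test. Within 250 kb of the OAS1-OAS3-OAS2 cluster the table lists 17 other genes. Of the 3 that passed the filter in both groups 1 was called higher and 0 lower, where 15.3% of all tested genes were called higher. RPH3A, 7.9 kb before the cluster, and DTX1, 45.0 kb after it, were at most 0.03 and 0.08 FPKM in any library, and are named for their position. DDX54, an RNA helicase of the nucleolus 145.5 kb away, was at 32.3 ± 3.08 and 25.3 ± 0.799 FPKM (SD, n = 3 each; log2 fold change −0.34, limma adjusted p = 0.0557). RITA1, a regulator of Notch signalling, had a log2 fold change of 0.16 (limma adjusted p = 0.265).

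The cluster neighbours that could be tested all lay 145.5 kb or more away, so nearer genes could not be compared with them. TPCN1, a cation channel of endosomes and lysosomes 209.3 kb after the cluster, had 8.59, 8.21 and 6.94 FPKM in the control libraries and 23.3, 35.4 and 30.4 FPKM in the knockdown libraries. It rose by 1.77 ± 0.17 (standard error) on the log2 scale, with a limma adjusted p of 0.00115. IQCD, which begins beside TPCN1 on the other strand and overlaps its first bases, was at 0.34 to 0.54 FPKM in shNC-1 and 3.0 to 3.27 FPKM in shDLGAP5-1, and so passed the filter through the group in which it was high and is not counted. Reads of the overlap cannot be told apart without strand.

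Within 250 kb of OASL there were 17 other genes, of which 4 were tested. Of these 1 was called higher and 0 lower, beside 15.3% higher and 9.52% lower over all tested genes. P2RX4, a channel opened by ATP and 170.6 kb away, rose from 8.92, 7.57 and 8.07 FPKM in the control libraries to 19.2, 22.0 and 22.0 FPKM in the knockdown libraries, by 1.26 on the log2 scale with a limma adjusted p of 0.00103. The protease gene SPPL3 and the kinase gene CAMKK2 had log2 fold changes of −0.20 and 0.58 (limma adjusted p = 0.171 and 0.279). The calls of TPCN1 and P2RX4 held in all 18 alternatives.

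**Figure D5:**
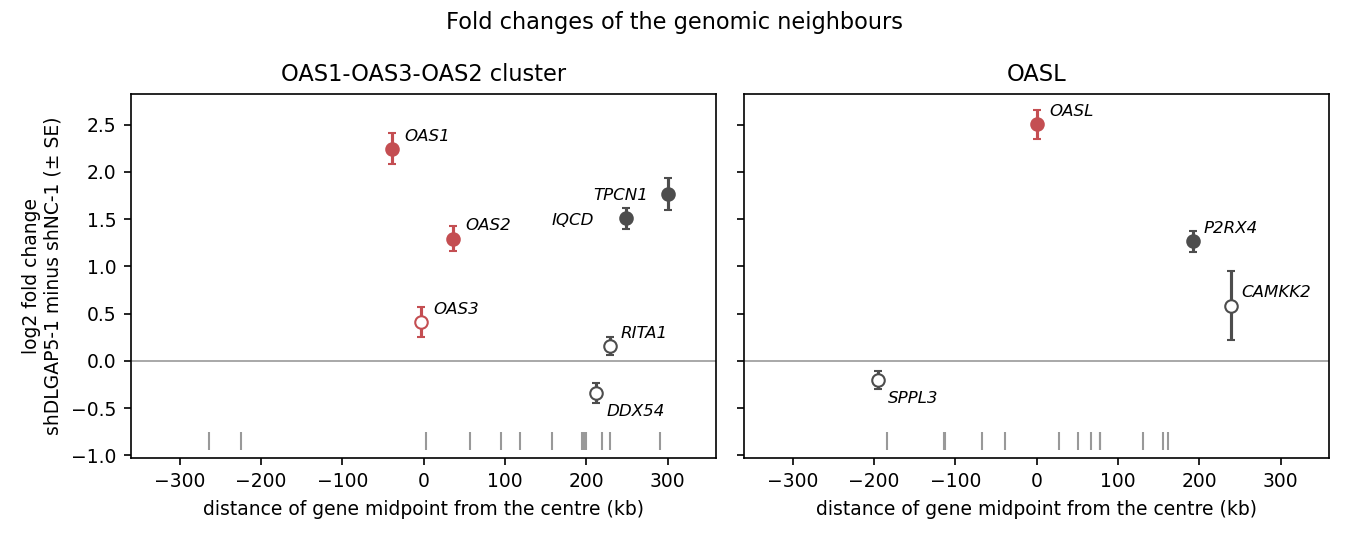
Log2 fold change (y axis, ± standard error) against distance of each gene's midpoint from the centre of the OAS1-OAS3-OAS2 cluster or of OASL (x axis, kb), with OAS genes in red, the tested neighbours named here in grey, filled points for a limma adjusted p under 0.05 and ticks for neighbours that were too low to test. The filled grey points are TPCN1 (1.77), P2RX4 (1.26) and IQCD (1.51), of which IQCD passed the filter through shDLGAP5-1 alone, where it was high.

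Over the 6 libraries the log2 levels of OASL, OAS1 and OAS2 ran together, with Pearson r of 0.96 to 0.99 between them, and OAS3 had r of 0.73 to 0.78 with the others. These values mostly restate the difference between groups. Among 8205 protein-coding genes with a mean of at least 5 FPKM, those most like OASL were RGL3, CYS1 and ITM2B (r of 0.9999, 0.9991 and 0.9990). Those most like OAS1 were C5orf15, WDR27 and RFXAP, and those most like OAS2 were DNAJC4, PHETA1 and MAPRE3 (r of at least 0.9961). Those most like OAS3 were B4GALT1, SLC41A2 and ATXN7L3B (r of at least 0.9949), with log2 fold changes of 0.31, 0.33 and 0.25 that did not pass the test. With 6 points in 2 clusters such values are common: 364, 391 and 443 genes had r above 0.95 with OAS1, OAS2 and OASL, and 94 with OAS3.

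The OAS paralogs share little transcript sequence, though how reads were assigned to them is not known. Of all runs of 50 bases in the GENCODE release 29 transcripts of each member, 0 occur in the transcripts of another member, and of runs of 31 bases OAS1 and OASL share 1. Transcripts of genes outside the family hold 3.54% of the 31-base runs of OAS1 and 1.96% of those of OAS3, on either strand. For OAS2 and OASL the shares were 0.3% and 0.7%. The antisense gene AC004551.1 spans the cluster and was listed at 0 in every library. Its exons share 92 of 4947 exon bases with OAS1 and 0 with OAS2, OAS3 or OASL.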

How the data were processed

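The authors deposited 1 table of FPKM for 58825 genes. Its header names no unit. The unit was read from the values: in genes with 1 exon, low values step inversely with length, at the same inferred depth in 3 length classes. Which aligner and quantifier made the values, and whether strand was used, is not given in the sources used here. Columns were given to samples by the letters NC and the replicate number. The other columns carry a construct number and were given to the only other group. Of 58552 identifiers in GENCODE release 29, 87% had the same GRCh38 coordinates.

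The test of each gene was limma (version 3.58.1, R 4.3.3) on log2(FPKM + 1) for genes that reached 1 FPKM in 3 or more libraries, with a trended variance, group as the only term and a Benjamini-Hochberg adjusted p under 0.05 over all genes tested. The test was checked on simulated data. Exact permutation tests (scipy 1.17.1) were two-sided. The 18 alternatives were another pseudocount, filters, scalings, removal of the length trend (lowess, span 0.3), a replicate block, a robust prior, array weights and leaving out each library. A median-ratio scaling moved the median of all genes by −0.04 and a same-total scaling by −0.09.

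Genes named were the 4 members, tested 2-5A partners, up to 4 genes of each other list by smallest p, tested neighbours within 250 kb, and for each member the 3 genes of highest correlation; others are said to be chosen afterwards. MB21D1 was matched as CGAS through RefSeq synonyms. The members and lists were chosen with earlier results of these data known. Depths and fragment numbers are approximate, since the transcript lengths behind the FPKM are not known, and p-values rest on 3 libraries per group. Some genes of these lists are not reported here.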

Additional observations from a re-analysis of the deposited data

How the results depend on the processing

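OASL, OAS1 and OAS2 kept their direction and their call in all 18 alternatives, with log2 fold changes of 2.40 to 2.76, 2.03 to 2.63 and 1.19 to 1.53 (limma adjusted p at most 0.00808, 0.00993 and 0.0129). OAS3 stayed positive and passed with the length trend removed (0.43), with array weights (0.47) and without shDLGAP5-1 replicate 1. It did not pass with the length trend removed and the replicate block together. Leaving out 1 library gave it 0.32 to 0.56. All 6 differences between members kept their sign in 9 alternatives. The 3155 calls among all genes became 2071 without a filter, 4953 with array weights and 1326 to 2806 without 1 library, where fewer samples were tested. Higher calls, 61.6% as reported, were 48.1% with same-total scaling, 50.8% with quantile normalization and 50% with the length trend removed.

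Same-numbered libraries did not deviate together (r of −0.155, 0.021 and −0.157), beside −0.065 to 0.193 for libraries of different number. With 3 libraries per group these values cannot decide whether the numbers pair them. With the replicate block 1464 genes were called, and the log2 fold change of OASL was 2.50 (limma adjusted p = 0.00589). Genes near 0 changed sign. AKAP7 gave −0.00502 with same-total scaling, −0.092 with quantile normalization and −0.00317 to 0.18 without 1 library. CGAS gave −0.076 with same-total and −0.020 with median-ratio scaling, −0.018 with the length trend removed, also with the block, and −0.000377 to 0.056 without 1 library. MIEF2 gave −0.029 with quantile normalization, −0.51 with array weights and −0.36 to 0.40 without 1 library. EIF2AK2 gave −0.082 with same-total and −0.025 with median-ratio scaling and −0.083 to 0.10 without 1 library. The causes were not tested.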
